A study of Mus musculus with 6 samples.

Results

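The platelet-derived growth factor (PDGF) genes examined here are the 4 ligands Pdgfa, Pdgfb, Pdgfc and Pdgfd, the 2 receptor tyrosine kinases Pdgfra and Pdgfrb, and the receptor-like gene Pdgfrl. They were taken by symbol from the deposited expression table and make up 7 of its 24972 gene symbols, and all 7 passed the filter on low values. In isolated lung endothelial cells (iLECs) of Atp6ap2 iECKO mice at P7, the 3 genes on the receptor side were lower than in controls and none of the 4 ligands passed the test. Pdgfrb was at 34.5% of its control mean, Pdgfra at 39.7% and Pdgfrl at 31.3%. Pdgfb, the ligand that endothelium makes, was at 108% of its control mean, a difference smaller than the spread between libraries.

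PDGF ligands are secreted dimers that bring receptor chains together in pairs, so that the kinase domains phosphorylate each other. Sprouting endothelial cells, in particular tip cells, release PDGF-B, and pericytes and vascular smooth muscle precursors that carry PDGFR-β follow it along the new vessel. In the developing lung, PDGF-A comes mainly from epithelium and acts on PDGFR-α-positive mesenchymal progenitors, among them those that give rise to alveolar myofibroblasts.

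The libraries were made from lungs of mice at postnatal day 7 (P7). All mice carried a floxed allele of the X-linked gene Atp6ap2, labelled fl/Y, and all pups, controls included, had received 100 µg of tamoxifen on each of P1 to P3. Control samples had no Cre. Atp6ap2 iECKO samples carried Cdh5-CreERT2 in addition, a Cre recombinase that tamoxifen activates and that the promoter of the endothelial gene Cdh5 drives, so that deletion is directed to endothelium and not to the mesenchymal cells that use PDGF receptors. The sample labels give the strain as C57BL/6, while the study's methods describe a mixed CD1 and C57BL/6 background. Lungs were digested and cells that bound magnetic beads coated with CD31 antibody were collected, with no further sort, giving 3 control and 3 Atp6ap2 iECKO libraries, which the study calls biological replicates. Pooling of animals was not stated.

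The values are normalized counts, read counts that the submitters had already scaled to a common size, and their library totals ranged from 26359661 to 28725799 among controls and from 26243878 to 27221581 among Atp6ap2 iECKO mice. Values are listed in the order of replicates 1, 2 and 3 throughout. The targeted gene Atp6ap2 stood at 7490.2, 5815 and 5681 normalized counts in controls against 4219.8, 2336 and 1982 in Atp6ap2 iECKO libraries, or 45.0% of the control mean (log2 fold change -1.22, SE 0.26, adjusted p = 0.0306, limma). The groups did not overlap, and Atp6ap2 iECKO replicate 1 kept the most transcript. Without 1 library the log2 fold change of Atp6ap2 lay from -1.54 to -0.999, and it was past the threshold in 1 of those 6 fits. Xist, the RNA of the inactive X chromosome in females, was abundant in control replicates 1 and 2 (37704 and 44402) as well as Atp6ap2 iECKO replicates 1 and 3 (39442 and 47487), although every sample is labelled fl/Y. The study's methods state that pups of both sexes were used, and its knockout and control groups elsewhere include females with a floxed allele on each X chromosome. It was at 31.7 in control replicate 3 and at 19.3 in Atp6ap2 iECKO replicate 2. Each result on the receptors is therefore also given with Xist as a covariate and for the 4 libraries with Xist alone. Endothelial markers matched the labelled cell type, with Pecam1, the gene of CD31, at 48730 to 57593 in controls and 55535 to 57759 in Atp6ap2 iECKO libraries. Transcripts of pericytes, smooth muscle, fibroblasts, epithelium and leukocytes were also measured in every library.

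Each gene was compared by limma on log2(normalized count + 1) over all 14456 genes tested, with p-values adjusted over all of them by the Benjamini-Hochberg method and a threshold of 0.05. Of all genes tested, 4.97% were called lower and 3.28% higher in Atp6ap2 iECKO libraries. Among the PDGF genes 3 of 7 were called lower and 0 of 7 higher, namely 3 of the 3 receptor and receptor-like genes and 0 of the 4 ligands by limma, of which 0 had an unadjusted p below 0.05. The lack of overlap between groups gave the same division, with 3 of the 7 lower in every Atp6ap2 iECKO library and none higher in every one, beside 15.0% and 14.7% of all genes tested. Counting a single gene by an exact two-sided permutation test over 3 against 3 libraries, the smallest p the design allows is 0.1, and Pdgfra, Pdgfrb and Pdgfrl each reached it. Pdgfra and Pdgfrb are among the genes that the study itself displayed from these libraries, so their fall is not independent evidence.

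**Figure D1:**
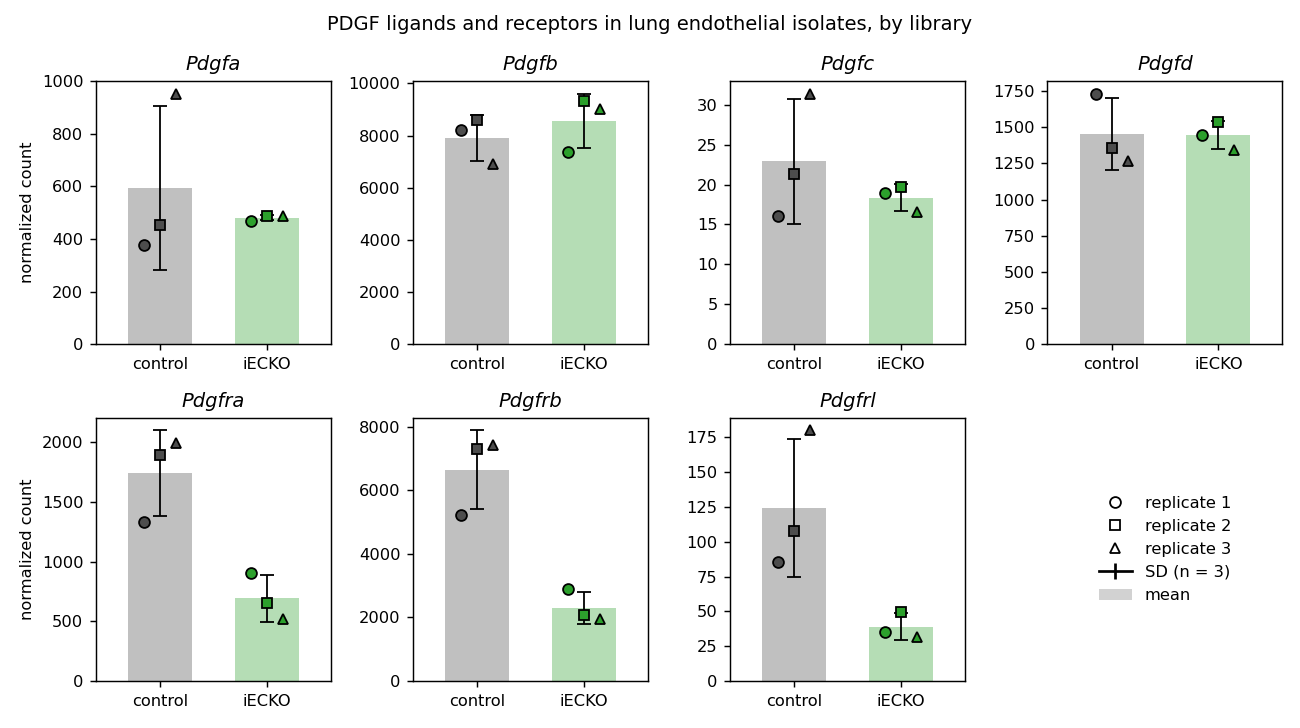
Normalized counts (vertical axes, linear from 0) of the 7 PDGF genes in 3 control (grey) and 3 Atp6ap2 iECKO (green) libraries, with bars at the mean, error bars of 1 SD and symbols for the replicate number. The 3 Atp6ap2 iECKO values of Pdgfra, Pdgfrb and Pdgfrl all sit below the lowest control value, while the groups overlap for each of the 4 ligands.

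Pdgfra encodes PDGFR-α, which binds PDGF-A and PDGF-C chains and marks lung fibroblast and myofibroblast progenitors. Its gene lies at chr5:75152292-75198215 on the plus strand of GRCm38. Controls held 1329, 1897 and 1996 normalized counts of Pdgfra, against 907, 649 and 519 in Atp6ap2 iECKO libraries. The lowest control library was control replicate 1, and the highest Atp6ap2 iECKO library was replicate 1, with a clear gap between them. The means were 1740.5 ± 360.0 and 692 ± 197 (SD, n = 3 each). This is a 2.54-fold difference on the fitted log2 scale, with a log2 fold change of -1.35 (SE 0.22, 95% interval -1.86 to -0.83, limma adjusted p = 0.0153). With Xist as a covariate the adjusted p was 0.0252, and in the 4 libraries with Xist the log2 fold change was -1.21 with an adjusted p of 0.169. Leaving out control replicate 3 moved the adjusted p of Pdgfra to 0.0635, and leaving out replicate 2 or 3 of the Atp6ap2 iECKO group moved it to 0.0562 or 0.0535. The kit did not keep strand, and exons of Pdgfra share 456 bases with the antisense gene Gm42802 and 166 bases with Gm42803, so their reads cannot be told apart from those of Pdgfra.

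The stretch just before the transcription start is shown for Pdgfra, a receptor gene that fell, and for Pdgfd, a ligand gene that did not pass the test. The tables of RefSeq promoters (GRCm38.p6) held entries for 4 of the 7 genes, namely Pdgfa, Pdgfc, Pdgfd and Pdgfra, and the 250 bases upstream of the annotated start are printed 5′ to 3′ on the strand of the gene, with capitals for motif matches. They are chr5:75152001-75152250, plus strand, for Pdgfra and chr9:6168236-6168485, plus strand, for Pdgfd.
Pdgfra: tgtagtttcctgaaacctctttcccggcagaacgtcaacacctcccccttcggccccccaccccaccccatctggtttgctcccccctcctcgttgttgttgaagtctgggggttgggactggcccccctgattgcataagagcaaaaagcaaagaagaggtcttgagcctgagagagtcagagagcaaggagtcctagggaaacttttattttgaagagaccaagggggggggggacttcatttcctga
Pdgfd: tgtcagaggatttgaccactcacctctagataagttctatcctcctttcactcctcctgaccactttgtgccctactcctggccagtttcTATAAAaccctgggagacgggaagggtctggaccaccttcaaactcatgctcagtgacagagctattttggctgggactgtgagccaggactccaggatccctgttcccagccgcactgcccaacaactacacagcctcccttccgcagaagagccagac
Both strands were searched for the GC box (GGGCGG), the CCAAT box (spelled as named), the TATA motif (TATAAA) and the CArG box of serum response factor. The Pdgfra window held none of the 4 motifs and its GC content was 54.4%. The Pdgfd window had a GC content of 53.6% and held 1 TATA motif, 155 bases before the start. Of the 32851 windows of the same length in the table, 32.7% held a GC box, 33.8% a CCAAT box, 12.4% a TATA motif and 1.47% a CArG box. Of the Pdgfa windows, which belong to 2 annotated starts, 1 held 1 GC box and the other held 2, and the Pdgfc window held 1 CArG box. These matches describe letters in the windows and say nothing about whether a factor bound there.

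Pdgfrb encodes PDGFR-β, the receptor for PDGF-B and PDGF-D that pericytes and vascular smooth muscle cells carry, and which pericyte recruitment depends on. Pdgfrb stood at 5212, 7285 and 7429.6 normalized counts in controls, against 2881, 2061.5 and 1934 in Atp6ap2 iECKO libraries. As for Pdgfra, control replicate 1 was the lowest control library and Atp6ap2 iECKO replicate 1 the highest of its group, and the groups did not overlap. The means of Pdgfrb were 6642 ± 1241 and 2292 ± 514 (SD, n = 3 each). The difference was 2.91-fold on the fitted scale, with a log2 fold change of -1.54 (SE 0.18, 95% interval -1.96 to -1.11, limma adjusted p = 0.00831). By p-value Pdgfrb ranked 57 of the 14456 genes tested, Pdgfra 309 and Pdgfrl 716. Pdgfrb was past the threshold in each of the 6 fits that left out 1 library, with log2 fold changes of -1.72 to -1.43 and adjusted p of 0.00398 to 0.0411. With Xist as a covariate its adjusted p was 0.0139, and in the 4 libraries with Xist the log2 fold change was -1.38 with an adjusted p of 0.121, a limma fit in which 0 of 14094 genes were called in either direction and 1210 lower and 986 higher had an unadjusted p below 0.05. The unadjusted p in that fit was 0.000844 for Pdgfrb, 0.00554 for Pdgfra and 0.0045 for Pdgfrl, in limma over the 4 libraries. In the libraries without Xist, control replicate 3 and Atp6ap2 iECKO replicate 2, Pdgfrb was at 7429.6 and 2061.5, which compares single libraries.

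Pdgfrl encodes a secreted protein with immunoglobulin-like domains related to those of the PDGF receptors and without a kinase domain, and its ligand is not established. It lies at chr8:40926212-40990785 on the plus strand. The control libraries held 85.6, 108 and 180.1 normalized counts of Pdgfrl, and the Atp6ap2 iECKO libraries 35.4, 49.8 and 31.8. It was the most variable of the 3 genes on the receptor side, with a coefficient of variation of 39.7% among controls against 20.7% for Pdgfra and 18.7% for Pdgfrb, and control replicate 3 was high. The means were 124 ± 49.5 and 39.0 ± 9.51 (SD, n = 3 each), and the log2 fold change was -1.60 (SE 0.34, 95% interval -2.39 to -0.82, limma adjusted p = 0.0301). With Xist as a covariate the adjusted p was 0.0220, and in the 4 libraries with Xist the log2 fold change was -1.49 with an adjusted p of 0.160. Pdgfrl stayed past the threshold in 1 of the 6 fits without 1 library, that without control replicate 1, with log2 fold changes of -1.84 to -1.30 and adjusted p of 0.0312 to 0.109. Its interval holds the values of Pdgfra and Pdgfrb, and no test was made between the 3 genes.

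**Figure D2:**
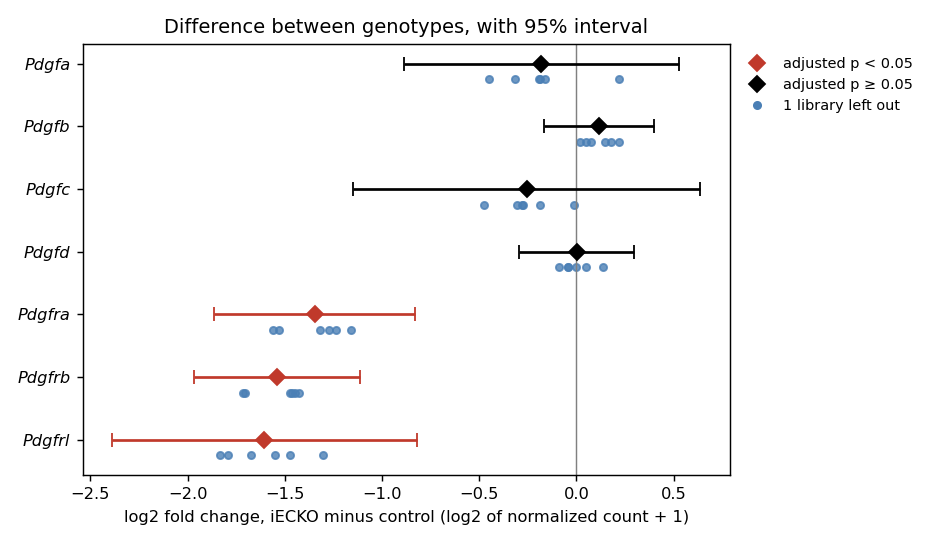
Log2 fold change (horizontal axis, Atp6ap2 iECKO minus control, on log2 of normalized count + 1) of each PDGF gene with its 95% interval from limma, red where the adjusted p was below 0.05, and blue points for the 6 fits that each left out 1 library. The intervals of Pdgfra, Pdgfrb and Pdgfrl lie wholly below 0, with values of -1.35, -1.54 and -1.60, while those of the 4 ligands cross 0.

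Pdgfb encodes the PDGF-B chain, whose basic C-terminal stretch holds it near the endothelial cell that secretes it. The gene lies at chr15:79995874-80014977 on the minus strand. Controls held 8203, 8579.9 and 6904 normalized counts of Pdgfb, against 7357, 9309 and 9009 in Atp6ap2 iECKO libraries. The groups overlapped, and control replicate 3 and Atp6ap2 iECKO replicate 1 were the low libraries. The means were 7896 ± 879 and 8558 ± 1051 (SD, n = 3 each), with a log2 fold change of 0.11 (SE 0.12, limma adjusted p = 0.627). The 95% interval of the difference, from -0.17 to 0.40 on the log2 scale, does not reach the size of the fall of either receptor, whose intervals end at -0.83 for Pdgfra and at -1.11 for Pdgfrb.

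Pdgfd encodes PDGF-D, a ligand of PDGFR-β that is secreted with a CUB domain and is active once a protease has removed it. It lies at chr9:6168584-6378850 on the plus strand. Pdgfd stood at 1733, 1359 and 1268 normalized counts in controls, against 1448, 1538 and 1344.5 in Atp6ap2 iECKO libraries. Control replicate 1 was the highest of the 6 libraries, and the groups overlapped. The means were 1454 ± 246 and 1444 ± 97.0 (SD, n = 3 each), and the log2 fold change was 0.0011 (SE 0.13, 95% interval -0.29 to 0.29, limma adjusted p = 0.997). Its sign turned with the library left out, from -0.09 to 0.13.

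Pdgfa encodes PDGF-A, which binds PDGFR-α. It lies at chr5:138976014-138997370 on the minus strand, and its exons share 813 bases with the antisense gene 6330403L08Rik, whose reads cannot be told apart from its own. The control libraries held 376, 453 and 953 normalized counts of Pdgfa, and the Atp6ap2 iECKO libraries 469, 487 and 488. Control replicate 3 held more than any other library, and the other 5 lay close together. The coefficient of variation was 52.7% among controls and 2.28% among Atp6ap2 iECKO libraries. The means were 594 ± 313 and 482 ± 11.0 (SD, n = 3 each), with a log2 fold change of -0.18 (SE 0.31, 95% interval -0.89 to 0.53, limma adjusted p = 0.776). Without control replicate 3 the log2 fold change of Pdgfa was 0.22, and it was again not past the threshold.

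Pdgfc encodes PDGF-C, the other ligand with a CUB domain, which acts on PDGFR-α and is activated by tissue plasminogen activator. It lies at chr3:81036416-81214040 on the plus strand, shares 147 exon bases with the antisense gene Gm16000, and was the scarcest of the 7. Pdgfc reached only 16.0, 21.3 and 31.4 normalized counts in controls, against 18.9, 19.7 and 16.5 in Atp6ap2 iECKO libraries. Control replicate 3 was again the highest library, and the groups overlapped. The means were 22.9 ± 7.82 and 18.4 ± 1.66 (SD, n = 3 each), and the log2 fold change was -0.26 (SE 0.39, limma adjusted p = 0.746). Its 95% interval, from -1.15 to 0.64 on the log2 scale, is wide, so that a fall as large as that of Pdgfrb lies outside it but a fall of 1 log2 unit does not.

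Levels of different genes were set side by side per kb of exon. In control libraries Pdgfb was the most abundant, at 1898 ± 211 normalized counts per kb (SD, n = 3), followed by Pdgfrb at 1213 ± 226, Pdgfd at 461 ± 78.1, Pdgfa at 190.5 ± 100.4, Pdgfra at 174 ± 35.9, Pdgfrl at 39.8 ± 15.8 and Pdgfc at 4.50 ± 1.54. Every neighbouring pair in this order was separated in all control libraries except Pdgfa and Pdgfra, whose ranges overlapped. In Atp6ap2 iECKO libraries Pdgfb was again first, at 2057 ± 253 per kb. Pdgfd, at 458 ± 30.8, and Pdgfrb, at 418 ± 93.8, then overlapped, where in controls Pdgfrb had been above Pdgfd in every library. Pdgfa followed at 154 ± 3.52 and stood above Pdgfra, at 69.0 ± 19.7, in every Atp6ap2 iECKO library. Pdgfrl at 12.5 ± 3.04 and Pdgfc at 3.61 ± 0.33 remained the lowest. These are levels in a mixture of cells, and they do not say how much ligand a receptor-bearing cell meets.

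**Figure D3:**
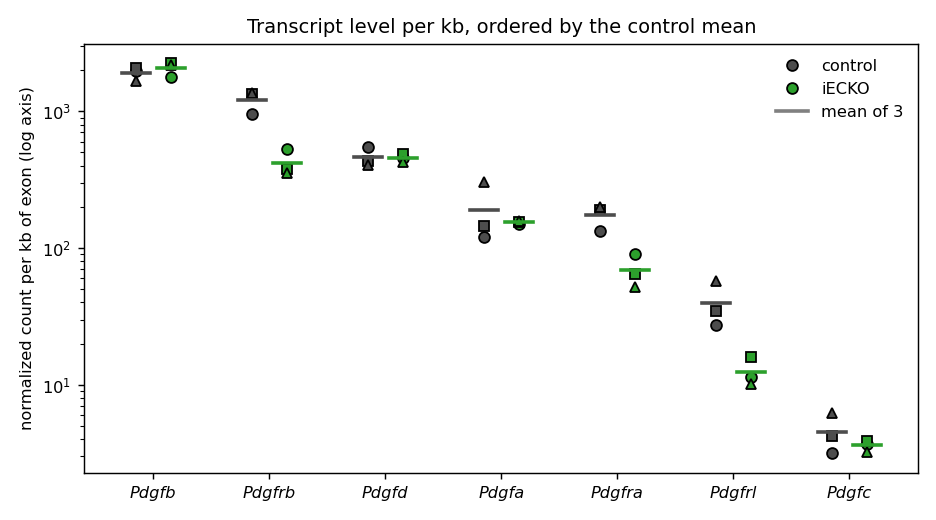
Transcript level in normalized counts per kb of exon (vertical log axis) of the 7 PDGF genes, ordered by the control mean, with 1 symbol per library (grey control, green Atp6ap2 iECKO, symbols as the replicate number) and a line at the mean of 3. Pdgfb is highest in both groups, and Pdgfrb moves from 1213 per kb in controls to 418 per kb in Atp6ap2 iECKO libraries, to the level of Pdgfd.

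Ratios within a library do not depend on how that library was scaled, and they are given as values without a test. Pdgfb per Pdgfrb, the endothelial ligand against its mesenchymal receptor and both per kb, was 2.07, 1.55 and 1.22 in controls, against 3.36, 5.95 and 6.13 in Atp6ap2 iECKO libraries. The groups did not overlap, and the mean ratio was 1.62 ± 0.43 in controls against 5.15 ± 1.55 (SD, n = 3 each). Pdgfa per Pdgfra was 0.91, 0.77 and 1.53 in controls and 1.66, 2.41 and 3.02 in Atp6ap2 iECKO libraries, which also did not overlap. Pdgfd per Pdgfrb was 0.40 ± 0.15 in controls and 1.13 ± 0.22 in Atp6ap2 iECKO libraries. The numerator of each of these ratios was a gene that did not pass the test and the denominator one that was lower. The receptors kept closer proportions to each other, with Pdgfrb per Pdgfra at 7.18, 7.03 and 6.81 in controls and at 5.81, 5.81 and 6.82 in Atp6ap2 iECKO libraries. Pdgfb per Pdgfd was 4.17 ± 0.60 and 4.51 ± 0.62.

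**Figure D4:**
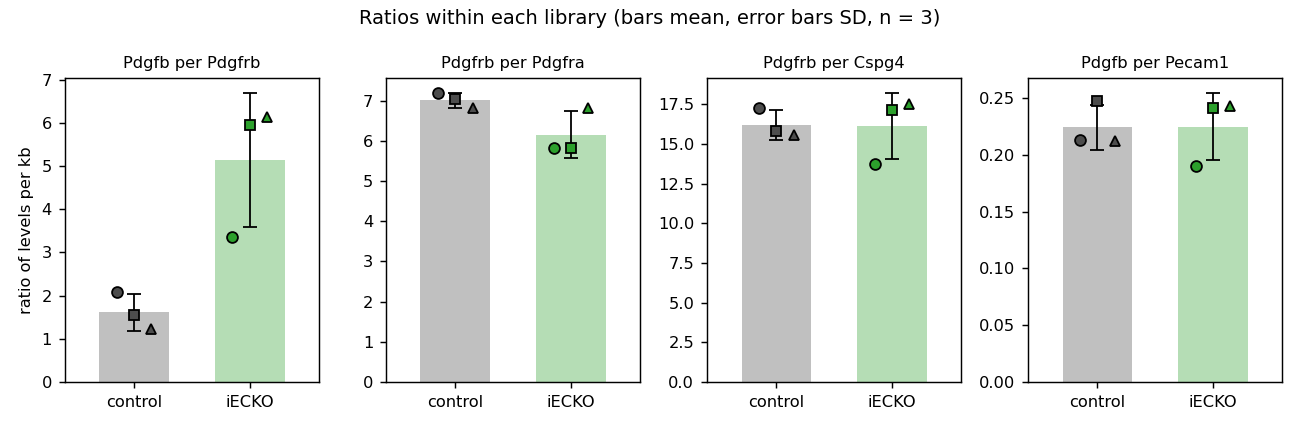
Ratio of 2 transcript levels per kb within each library (vertical axes, linear from 0) for Pdgfb per Pdgfrb, Pdgfrb per Pdgfra, Pdgfrb per Cspg4 and Pdgfb per Pecam1, with bars at the mean, error bars of 1 SD (n = 3) and symbols for the replicate number. The ratio Pdgfb per Pdgfrb is 1.22 to 2.07 in controls and 3.36 to 6.13 in Atp6ap2 iECKO libraries, while the ranges of Pdgfrb per Cspg4 and Pdgfb per Pecam1 overlap between groups.

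The cells that use PDGF receptors were then followed by lists of their other markers. In a bulk isolate, fewer cells of a type and less RNA per cell cannot be told apart. Of 15 pericyte markers tested, 12 were called lower and 0 higher, beside 4.97% and 3.28% of all genes tested. Their median log2 fold change was -1.51 against 0.0049 over all genes tested. Rgs5, a regulator of G protein signalling in mural cells, had a log2 fold change of -1.94 (SE 0.18, limma adjusted p = 0.00562), and Gucy1b1, a subunit of soluble guanylate cyclase, of -1.48 (SE 0.16, limma adjusted p = 0.00731). Cox4i2, Des, Notch3, Ndufa4l2 and Gucy1a1 lay between them, from -1.81 to -1.53. The summed pericyte markers ranged from 17982 to 24830 normalized counts in controls and from 7150.1 to 9770.2 in Atp6ap2 iECKO libraries, and no marker was at 0 in all libraries. Without 1 library, between 8 and 11 of the pericyte markers were called lower. Notch3 is among the genes the study displayed from these libraries.

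Library by library, Pdgfrb moved with the median pericyte marker. As log2 differences from the control mean, Pdgfrb was at -0.33, 0.15 and 0.18 among controls, beside a pericyte median of -0.29, 0.15 and 0.14. Among Atp6ap2 iECKO libraries Pdgfrb was at -1.19, -1.67 and -1.76, beside a pericyte median of -1.16, -1.60 and -1.67. The median lung fibroblast marker had a similar profile, at -0.44, 0.26 and 0.12 among controls and -1.36, -1.63 and -1.60 among Atp6ap2 iECKO libraries. The closeness of Pdgfrb is therefore not particular to the pericyte list. Per unit of Cspg4, the gene of the pericyte proteoglycan NG2, Pdgfrb was at 16.2 ± 0.94 in controls and 16.1 ± 2.07 in Atp6ap2 iECKO libraries (SD, n = 3 each). The log2 fold change of Pdgfrb, -1.54, lay between those of Rgs5 and Gucy1b1. The part of pericyte number in the isolate was not tested. The study checked its iLEC isolates by immunoblot for VE-cadherin and for the mural proteins αSMA and desmin, and took them as pure. It reported VE-cadherin in iLECs only, and αSMA and desmin in the non-endothelial fraction. Its discussion names PDGFRβ as a transcript decreased in Atp6ap2 mutant endothelial cells. The blots were not analysed here. Of the transcripts, Des was at 661, 977 and 998 normalized counts in controls and at 323, 223 and 265.5 in Atp6ap2 iECKO libraries.

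Pdgfra and Pdgfrl were set beside lung fibroblast markers. Of the 17 tested, 15 were called lower and 0 higher, beside 4.97% and 3.28% of all genes tested. Their median log2 fold change was -1.496, and their summed counts went from 101277 to 156936 in controls to between 37347 and 52072 in Atp6ap2 iECKO libraries. Mfap4, a microfibril-associated protein, had a log2 fold change of -1.84 (SE 0.22, limma adjusted p = 0.00831), Itga8, the integrin α8 subunit, of -1.63, and Col1a1, a chain of type I collagen, of -1.62. Wnt2, Dpt, Col1a2 and Col3a1 were called lower as well. Pi16 and Dcn were not called. Pi16 was higher in every Atp6ap2 iECKO library, with a log2 fold change of 1.12 (SE 0.34, limma adjusted p = 0.0902). Dcn, at a low level, overlapped between groups, with a log2 fold change of -0.59 (limma adjusted p = 0.642). The study displayed Col1a1, Col3a1, Npnt and Fbln1 of this list from the same libraries. As log2 differences from the control mean, Pdgfra was at -0.37, 0.15 and 0.22 among controls, beside a fibroblast median of -0.44, 0.26 and 0.12. Among Atp6ap2 iECKO libraries Pdgfra was at -0.92, -1.40 and -1.72, beside a fibroblast median of -1.36, -1.63 and -1.60. Atp6ap2 iECKO replicate 1 kept more Pdgfra than the median fibroblast marker did. The pericyte median, at -1.16, -1.60 and -1.67, lay closer to Pdgfra than the fibroblast median in each Atp6ap2 iECKO library. Pdgfrl was at -0.46, -0.14 and 0.60 among controls and at -1.72, -1.23 and -1.86 among Atp6ap2 iECKO libraries. Pdgfra per Tcf21, a fibroblast transcription factor gene, was 0.31 ± 0.04 in controls and 0.34 ± 0.03 in Atp6ap2 iECKO libraries per kb. The part of fewer fibroblasts in these values was not tested. Without 1 library, between 7 and 14 of the fibroblast markers were called lower.

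Smooth muscle markers were lower too, with 4 of 10 called, namely Myh11, Tagln, Hhip and Mylk, beside 4.97% of all genes tested. Their median log2 fold change was -1.34. Myh11, the smooth muscle myosin heavy chain, had a log2 fold change of -1.38 (SE 0.23, limma adjusted p = 0.0152), and Smtn of -0.07 (limma adjusted p = 0.767). The summed smooth muscle markers ranged from 18515 to 24907 in controls and from 13993 to 15385 in Atp6ap2 iECKO libraries. These sums are weighted to Mylk and Smtn, the most abundant of the list, with control means of 10526 and 5535. Their log2 fold changes, -0.55 and -0.07, were smaller in size than the list median. The number called lower ranged from 0 to 7 with 1 library left out, and it was 0 without control replicate 3 and without replicate 2 or 3 of the Atp6ap2 iECKO group.

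Pdgfb and Pdgfd were set beside endothelial markers. Of 17 endothelial markers 1 was called lower and 0 higher, near the 4.97% and 3.28% of all genes tested. The median log2 fold change was 0.0033, with summed counts of 372779 to 467793 in controls and 380300 to 432671 in Atp6ap2 iECKO libraries. The marker called lower was Tek, the angiopoietin receptor gene, at -0.53 (SE 0.11, limma adjusted p = 0.0292), which the study displayed from these libraries. With 1 library left out the list had 1 call lower without Atp6ap2 iECKO replicate 1 and 0 in the other 5 fits. Pecam1 had a log2 fold change of 0.12 and Cdh5 of 0.07, with limma adjusted p of 0.599 and 0.853. Pdgfb per Pecam1 was 0.21, 0.25 and 0.21 in controls, against 0.19, 0.24 and 0.24 in Atp6ap2 iECKO libraries, and Pdgfb per Cdh5 was 0.09 ± 0.01 in each group. The ligand thus kept its proportion to endothelial transcripts within the spread between libraries.

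Because tip cells are a known source of Pdgfb, their markers were listed as well. Of 15 tip cell markers 3 were called lower and 1 higher, beside 4.97% and 3.28% of all genes tested. Their median log2 fold change was -0.11. Cxcr4, a chemokine receptor, stood at 6022, 4032 and 4971 normalized counts in controls and at 2343, 1793 and 1799 in Atp6ap2 iECKO libraries, with a log2 fold change of -1.33 (SE 0.16, limma adjusted p = 0.00848). Adm, which encodes adrenomedullin, was at -1.08 and Dll4, a Notch ligand, at -0.33, with limma adjusted p of 0.0396 and 0.0432. Apln, which encodes the peptide apelin, went the other way, at 5809.6, 5365 and 5015 in controls and 7239, 10818 and 12140.0 in Atp6ap2 iECKO libraries, with a log2 fold change of 0.87 (SE 0.18, limma adjusted p = 0.0284). Mcam, the most abundant of the list, was at 0.10 (limma adjusted p = 0.680). Cxcr4 is a gene the study displayed from these libraries. With 1 library left out, between 1 and 2 tip cell markers were called lower, with 1 in every such fit but that without Atp6ap2 iECKO replicate 1, and between 0 and 3 were called higher.

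Pdgfa and Pdgfc were set beside epithelial markers. As log2 differences from the control mean, the median epithelial marker was at -0.39, -0.47 and 0.94 among controls and at 0.03, -0.08 and -0.08 among Atp6ap2 iECKO libraries. Pdgfa was at -0.54, -0.27 and 0.80 among controls and from -0.22 to -0.16 among Atp6ap2 iECKO libraries. Pdgfc was at -0.44, -0.05 and 0.49 among controls and from -0.40 to -0.16 among Atp6ap2 iECKO libraries. Control replicate 3, the library highest in both ligands, was also highest in Sftpc, the surfactant protein C gene of alveolar type 2 cells, at 39068 against 13596 to 21587 in the other 5. Of 11 epithelial markers 0 were called lower and 1 higher, beside 4.97% and 3.28% of all genes tested. Their median log2 fold change was -0.09, with summed counts of 25812 to 69964 in controls and 32094 to 39128 in Atp6ap2 iECKO libraries. The marker called higher was Scgb1a1, the secretoglobin of club cells, at a log2 fold change of 1.75 (SE 0.41, limma adjusted p = 0.0408). With 1 library left out the list had 1 call higher without control replicate 3 and 0 in the other 5 fits. Ager was at -0.16 and not past the threshold. The part of epithelial RNA in the Pdgfa and Pdgfc values was not tested.

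Blood cells also carry PDGF, which platelets store. Of 8 platelet and megakaryocyte markers and 9 leukocyte markers tested, 0 were called in either direction by limma. Over all genes tested 4.97% were called lower and 3.28% higher, and lists this short hold few or no calls at such shares. At an unadjusted limma p below 0.05 there were 0 as well, a count given without a background. The median log2 fold changes were 0.39 and 0.36. The median platelet marker stood at 1.63 and 1.49 log2 units above the control mean in control replicate 1 and Atp6ap2 iECKO replicate 1. Among the 4 ligands, only Pdgfd was highest of its group in control replicate 1, and none was in Atp6ap2 iECKO replicate 1. The part of platelet RNA in the ligand values was not tested. Summed platelet markers ranged from 1087 to 3479 in controls and 1247 to 3008 in Atp6ap2 iECKO libraries, and summed leukocyte markers from 5602 to 10108 and from 4820.2 to 13385.

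**Figure D5:**
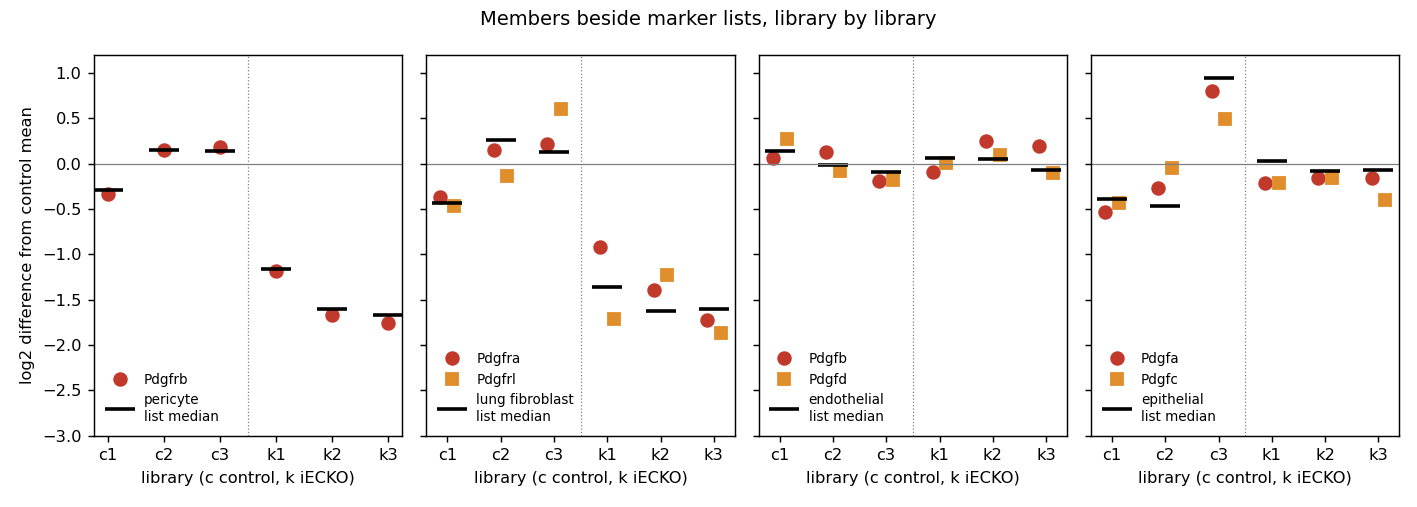
Log2 difference from the control mean (vertical axis) in control libraries c1 to c3 and Atp6ap2 iECKO libraries k1 to k3, for the PDGF genes (coloured symbols) beside the median of a marker list (black dashes): Pdgfrb with pericyte, Pdgfra and Pdgfrl with lung fibroblast, Pdgfb and Pdgfd with endothelial, and Pdgfa and Pdgfc with epithelial markers. Pdgfrb lies close to the pericyte median in all 6 libraries, from 0.18 in c3 to -1.76 in k3, and Pdgfa follows the epithelial median up to 0.80 in c3. Each gene is drawn beside 1 list only, and the pericyte and fibroblast medians are similar.

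The rest of the pathway was taken from 3 lists with 45 genes in all, each of which was tested. Of these 2 were called lower, 1 higher and 42 neither way, with a median log2 fold change of -0.07, beside 4.97% and 3.28% of all genes tested. Among 11 genes that process or bind the ligands, Lrp1, a large endocytic receptor that also takes part in PDGFR-β signalling, was called lower and Pcsk6, a proprotein convertase of the family that cleaves PDGF precursors, higher. Lrp1 stood at 6760.4, 9833 and 9144 normalized counts in controls and at 5299, 3026 and 4367 in Atp6ap2 iECKO libraries, with a log2 fold change of -1.04 (SE 0.22, limma adjusted p = 0.0287). Pcsk6 was at 421, 415 and 349 in controls and at 567, 618 and 588 in Atp6ap2 iECKO libraries, with a log2 fold change of 0.58 (SE 0.12, limma adjusted p = 0.0289). For both genes the groups did not overlap. With 1 library left out, the pathway genes called lower were 2 without replicate 1 of either group and 0 in the other 4 fits, and those called higher were 1 without control replicate 1 or 2 and 0 in the other 4 fits. Sparc, a matrix protein that binds PDGF-B, was at -0.05 and Nrp1 at 0.00093, neither past the threshold, and the median of the ligand list was -0.05.

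Among 24 genes that act directly at the receptors, 1 was called lower and 0 higher, near the 4.97% and 3.28% of all genes tested. Their median log2 fold change was -0.10. At an unadjusted p below 0.05, 7 were lower and 0 higher, 7 were lower in every Atp6ap2 iECKO library, and 21 of the 24 had a negative log2 fold change. Over all genes tested, 15.0% were lower in every Atp6ap2 iECKO library, and 7133 of 14456 had a negative log2 fold change. The share of all genes at an unadjusted p below 0.05 is not given, so the unadjusted counts of this and the next list lack a background. The gene called was Src, a kinase that docks on activated PDGF receptors, at 675, 701 and 1039 in controls and 466, 530.1 and 399.8 in Atp6ap2 iECKO libraries, with a log2 fold change of -0.77 (SE 0.19, limma adjusted p = 0.0458). The more abundant Stat3 and Crk were at -0.40 and -0.10, with limma adjusted p of 0.105 and 0.729. Among 10 genes that shut receptor signalling off, 0 were called by limma, beside 4.97% lower and 3.28% higher of all genes tested. At an unadjusted limma p below 0.05, 2 were lower and 2 higher, and the median was -0.05. Socs3, an inducible suppressor of cytokine signalling and among the most abundant of the list, was at -0.27 (limma adjusted p = 0.288). Over the 45 genes 13 were lower in every Atp6ap2 iECKO library and 2 higher, beside 15.0% and 14.7% of all genes tested. Most of these signalling genes are transcribed in endothelial cells too, so their level says little about the cells that carry PDGF receptors.

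The genes whose profile over the 6 libraries was most like that of a PDGF gene were found by the root-mean-square difference of centred log2 values, among 11316 genes with a mean of at least 100. Nearest to Pdgfrb were Heyl, a Notch target of mural cells, at 0.0494, then Ndufa4l2 at 0.0523, Postn at 0.0551, Agtr1a at 0.0585 and Gucy1b1 at 0.0611. Ndufa4l2 and Gucy1b1 are also on the pericyte list. Nearest to Pdgfra were Agtr1a, an angiotensin II receptor, at 0.0764, Mxra8 at 0.0827, Adcy2 at 0.0879, Col6a2 at 0.0881 and Tbx4, a transcription factor of lung mesenchyme, at 0.0959. Agtr1a was on both lists, at 219.8, 297 and 317 normalized counts in controls, against 130.1, 93.9 and 83.8 in Atp6ap2 iECKO libraries and a log2 fold change of -1.44 (limma adjusted p = 0.0144). Nearest to Pdgfb were Asxl2 at 0.0325, Dnajc27 at 0.0345, Wdr44 at 0.0368, Nup210 at 0.0399 and Mrps18a at 0.0410, none of which passed the test. A flat profile such as that of Pdgfb is matched by many genes, and with 6 libraries these distances are a description.

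Between the PDGF genes themselves, the closest pair was Pdgfra and Pdgfrb, at a root-mean-square difference of 0.125 log2 units, followed by Pdgfb and Pdgfd at 0.177 and Pdgfa and Pdgfc at 0.184. Pdgfrl was at 0.354 from Pdgfrb and 0.370 from Pdgfra. The ligand Pdgfb and its receptor Pdgfrb were far apart, at 0.901. The 3 closest pairs joined receptor to receptor, Pdgfb to Pdgfd, and Pdgfa to Pdgfc. These distances include the difference between genotypes, so the gap between receptors and ligands repeats the results given above for each gene.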

How the data were processed

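iLECs from lungs of 3 control and 3 Atp6ap2 iECKO samples were analysed, grouped by their sample labels. Per the labels and methods, mRNA libraries were made with an unstranded TruSeq kit, sequenced on a NextSeq instrument, aligned to mm10 with the BaseSpace RNA-Seq Alignment tool 2.0.1 and quantified with the BaseSpace RNA-Seq Differential Expression tool 1.0.1. The authors deposited 1 table of normalized signal values per gene symbol, called normalized counts here. The labels describe raw counts, but the values are not whole numbers and whole reads could not be recovered, so that the depth in reads is unknown, no counting interval is given, and a linear model replaced a count test. Precision is the SD over 3 libraries.

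The test covered 14456 of 24972 symbols, those that reached 10 normalized counts in 3 or more libraries, and used limma 3.58.1 in R 4.3.3 on log2(value + 1) with a mean-variance trend and Benjamini-Hochberg adjustment. A fold change on this scale understates the change of low genes. The fit was tested on simulated data. Nothing in the labels ties the libraries to separate animals beyond a replicate number, so p-values measure the spread between these libraries. Ratios, profiles and exact permutation tests used numpy 2.4.6, pandas 2.3.3 and scipy 1.17.1, and figures matplotlib 3.10.9. Exon lengths came from the union of exons in GENCODE M21 on GRCm38, the assembly of mm10, in which 24490 symbols had a gene model. Motifs were searched in RefSeq promoter windows.

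The PDGF genes, the pathway lists and the marker lists were chosen with earlier results of these data known. The genes named were the 7 PDGF genes, Atp6ap2, the 5 genes of most similar profile (mean of at least 100) to Pdgfb, Pdgfra and Pdgfrb, and from each list up to 6 called genes with the largest change and the 2 of highest mean. 1 gene that this rule names is not reported here. Cspg4 and Tcf21 served as denominators of ratios, and Pi16 and Dcn were added as the fibroblast markers that were not called. Of the markers, Gucy1a3 and Gucy1b3 (older names of Gucy1a1 and Gucy1b1) have no row, and Actc1, Lum and Ncr1 did not pass the filter. Xist was added as a check of the labels. Alternatives were other scalings, filters and pseudocounts, no trend, a replicate block, a covariate for Xist, the 4 libraries with Xist, and each library left out.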

Additional observations from a re-analysis of the deposited data

How the results depend on the processing

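Each result was recomputed under 16 alternatives (15 for Pdgfc, which a filter of 50 removed). Pdgfrb stayed past the threshold in 15 of 16, Pdgfra in 11 and Pdgfrl in 9, and all 3 kept their direction in each. The number of PDGF genes called lower, 3, was 1 without the mean-variance trend, 0 in the 4 libraries with Xist, and 1 to 3 with 1 library left out; without control replicate 3, or without replicate 2 or 3 of the Atp6ap2 iECKO group, it was Pdgfrb alone. The pathway genes called lower, 2, were 1 after scaling to the library total, 0 without the trend, 0 in the libraries with Xist, and 0 to 2 with 1 library left out. The pathway gene called higher, 1, became 0 without the trend, 0 in the libraries with Xist, and 0 to 1 with 1 library left out. The log2 fold change of Atp6ap2, -1.22, had an adjusted p of 0.0917 without the trend (-1.22) and of 0.217 in the libraries with Xist (-1.19), and was -1.54 to -0.999 with 1 library left out. The 4-library fits have fewer samples, and for the other changes the cause was not tested.

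Ligand differences near 0 turned sign. In the libraries with Xist Pdgfa was at 0.21, Pdgfb at -0.0433 and Pdgfd at -0.14, and with 1 library left out Pdgfa ranged from -0.45 to 0.22 and Pdgfd from -0.0905 to 0.13, never past the threshold. Over all genes, 719 were called lower and 474 higher. These became 235 and 69 without the trend, 178 to 658 and 28 to 460 with 1 library left out, and 0 and 0 in the 4 libraries with Xist. With the Xist covariate 519 were called lower and 248 higher.

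Among marker lists, calls were lost without the trend, where smooth muscle went from 4 to 0 lower, fibroblast from 15 to 8, tip cell from 3 to 1 lower and from 1 to 0 higher, endothelial from 1 to 0 and epithelial from 1 to 0 higher. With the Xist covariate the tip cell calls lower went from 3 to 1, and the endothelial and epithelial calls from 1 to 0. In the 4 libraries with Xist each list had 0 calls.

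With a replicate block 3 pathway genes were called lower and 4 higher, and 3 PDGF genes were called lower. Calls rose over all genes as well in that fit, to 838 lower and 670 higher. The block was not part of the main test, since libraries of the same number deviated together only weakly (r = 0.252, 0.114 and 0.078 for numbers 1, 2 and 3). Control replicate 3 also correlated best with Atp6ap2 iECKO replicate 2 (r = 0.1). Still, each same-number pair was positive, while the other pairs of different number were negative, from -0.208 to -0.026. Whether libraries of the same number shared a batch was not tested. Depth in reads is unknown.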
